A study of Mus musculus with 16 samples.

Results

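Acute phase proteins are plasma proteins whose output rises in inflammation, and the genes described here encode serum amyloid A (Saa1, Saa2 and Saa3), lipocalin 2 (Lcn2), haptoglobin (Hp), the orosomucoids (Orm1 and Orm2) and the clade A serpins Serpina3n and Serpina3g. They were taken by name as a list of 9 genes, and a probe set with that gene symbol alone was found for 8 of them, out of 19938 genes in all. Serpina3g is not listed with a probe set of its own and was not analysed here. None of the 8 genes has a second probe set.

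The levels were read in mouse embryonic fibroblasts (MEFs), which are cultured from embryos, of the strain C57Bl/6 x 129Sv. The 16 Affymetrix Mouse Gene ST arrays form 4 groups of 4. Littermate MEFs (genotype WT) and SIMPL−/− MEFs (genotype IRAK1BP1 KO, lacking the NF-κB co-activator SIMPL) were either left untreated or given recombinant human TNFα at 10 ng/ml, for 45 min by the labels and 1 h by the methods of the study. The methods describe 4 separate derivations of MEFs of each genotype, each starting from 1 embryo. No label names the embryo of an array, so the p-values measure the spread between these arrays. The study asked which TNFα responses need SIMPL.

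The acute phase response is best known from the liver, where interleukin 6 acts through STAT3, and interleukin 1 and TNFα act through NF-κB and the C/EBP factors, on the promoters of these genes. Many of them are also made outside the liver, in fat cells, macrophages, epithelia and fibroblasts. Saa3 in particular is the serum amyloid A that mouse macrophages and fat cells make, while Saa1 and Saa2 are the main plasma forms from the liver. Haptoglobin is likewise a product of liver and fat.

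The sequence just upstream of the start of each gene is shown for the serum amyloids, of which Saa3 alone had a called TNFα response, and for Lcn2 and Serpina3n, which moved in opposite directions between the genotypes. The sequences are the 250 bases before the RefSeq start in build GRCm38.p6, written 5′ to 3′ on the strand of the gene, and capitals mark matches to the C/EBP motif TTNNGNAA on either strand. Saa1 lies on the minus strand at chr7:46742981-46743230, Saa2 on the plus strand at chr7:46751583-46751832 and Saa3 on the minus strand at chr7:46715677-46715926. Lcn2 lies on the minus strand at chr2:32387740-32387989 and Serpina3n on the plus strand at chr12:104406458-104406707.
Saa1: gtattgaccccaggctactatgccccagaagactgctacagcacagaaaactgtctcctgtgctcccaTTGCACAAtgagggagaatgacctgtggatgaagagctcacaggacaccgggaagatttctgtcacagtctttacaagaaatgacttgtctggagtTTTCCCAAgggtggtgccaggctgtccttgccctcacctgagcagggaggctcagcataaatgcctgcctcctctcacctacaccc
Saa2: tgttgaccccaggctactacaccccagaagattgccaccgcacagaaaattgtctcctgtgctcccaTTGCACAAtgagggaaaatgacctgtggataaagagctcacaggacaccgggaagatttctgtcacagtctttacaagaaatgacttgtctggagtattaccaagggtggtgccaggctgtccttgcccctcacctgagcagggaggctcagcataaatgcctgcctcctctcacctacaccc
Saa3: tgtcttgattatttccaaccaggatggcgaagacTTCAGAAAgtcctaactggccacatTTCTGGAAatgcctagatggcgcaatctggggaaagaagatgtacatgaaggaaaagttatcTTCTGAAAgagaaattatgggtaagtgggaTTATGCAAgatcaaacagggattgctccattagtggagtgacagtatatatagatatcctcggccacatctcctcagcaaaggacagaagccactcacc
Lcn2: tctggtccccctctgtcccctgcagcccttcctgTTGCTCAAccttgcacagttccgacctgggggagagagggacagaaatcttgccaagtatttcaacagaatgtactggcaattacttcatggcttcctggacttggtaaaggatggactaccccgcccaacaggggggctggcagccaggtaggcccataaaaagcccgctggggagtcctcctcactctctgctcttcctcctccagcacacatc
Serpina3n: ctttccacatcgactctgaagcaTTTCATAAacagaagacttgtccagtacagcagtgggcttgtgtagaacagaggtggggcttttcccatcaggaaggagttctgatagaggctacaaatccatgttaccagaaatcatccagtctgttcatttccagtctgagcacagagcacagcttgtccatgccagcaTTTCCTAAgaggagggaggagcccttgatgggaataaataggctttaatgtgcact

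The promoters of Saa1 and Saa2 were nearly the same sequence, with 287 identical bases of 299 aligned (96%), counting also the 50 bases from the start on. The Saa3 promoter had 65.1% identity to that of Saa1 over 261 aligned bases and 62.8% to that of Saa2 over 266. Saa3 held 4 C/EBP matches, the nearest to the start at −99 to −92, against 2 in Saa1 and 1 in Saa2. Saa1 and Saa2 share the match TTGCACAA, at −182 to −175 and −183 to −176. Lcn2 held 1 match and Serpina3n 2.

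Of the 9 genes, 7 have an entry in the promoter table, those shown plus Orm2 and Serpina3g, and Hp and Orm1 have none. At least 1 C/EBP match was found in all 7, while 40.7% of the 32851 promoters in the table hold one in a window of the same 300 bases. The 7 are not independent sequences, since Saa1 and Saa2 are nearly the same and Serpina3n and Serpina3g have 73.2% identity. A κB motif match was found in 1 of the 7 (Serpina3g), against 4.51% of all promoters, and it overlaps a C/EBP match there. A match to the STAT motif TTCNNNGAA was also found in Serpina3g alone, against 8.3% of all promoters. The TATA motif TATAAA was found in Orm2 alone, against 13.6% of all promoters. A match describes the letters of this window only.

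**Figure D1:**
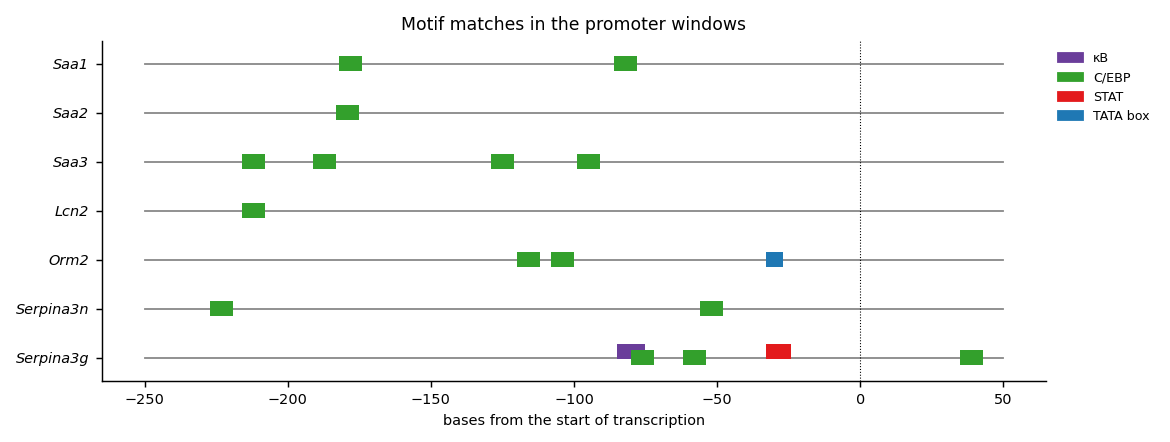
Position of the motif matches, in bases from the start of the gene, in the promoters of the 7 genes with an entry (1 row a gene, 1 colour a motif). Saa3 holds 4 C/EBP matches and the κB and STAT matches lie in Serpina3g alone.

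Saa3 responded to TNFα in MEFs of both genotypes and was the only one of the 8 genes to do so, where 2.7% of all genes rose in littermate and 1.73% in SIMPL−/− MEFs. Arrays are numbered 1 to 4 within a group, and values are given in that order. Its log2 values were 6.76, 6.64, 7.06 and 6.76 on the 4 untreated littermate arrays and 7.74, 7.62, 7.59 and 7.40 after TNFα. In SIMPL−/− MEFs they were 7.0, 7.18, 7.04 and 7.04 without TNFα and 7.57, 7.60, 7.62 and 7.61 with it. Every treated array lay above every untreated array of its genotype, and the treated SIMPL−/− arrays lay within the range of the treated littermate arrays. The rise was 0.78 on the log2 scale in littermate MEFs (SE 0.08, a 1.72-fold rise, n = 4 arrays per group, adjusted p = 2.44e-06 by limma). In SIMPL−/− MEFs it was 0.54 (SE 0.08, 1.45-fold, adjusted p = 0.000439 by limma). The SIMPL−/− response was thus smaller by −0.24, with a 95% interval from −0.49 to −0.0041, and this difference did not pass the test (adjusted p = 0.38 by limma). Untreated SIMPL−/− MEFs started higher by 0.26 (SE 0.08, adjusted p = 0.0152 by limma), although the ranges overlap. That call was lost without littermate array 2 (adjusted p = 0.0586 by limma) or SIMPL−/− array 2 (0.0507) and with the methods' t-test (0.0825). After TNFα the genotypes stood 0.02 apart (interval −0.15 to 0.19, adjusted p = 0.896 by limma).

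Saa1 and Saa2 were dim on these arrays. The Saa1 values ranked between percentiles 0.725 and 4.38 of all genes on their array, and those of Saa2 between 3.05 and 8.14, against 43.7 to 59.0 for Saa3. At such signals a log2 difference can be smaller than the change in RNA, and probes of near-identical paralogs may bind each other's transcripts, which was not tested. Saa1 read 3.32, 3.15, 3.32 and 3.27 on untreated and 3.44, 3.62, 3.23 and 3.48 on treated littermate arrays. In SIMPL−/− MEFs it read 3.41, 3.61, 3.74 and 3.46 without TNFα and 3.11, 3.56, 3.27 and 3.24 with it. The only groups of Saa1 that did not overlap were the untreated genotypes, where SIMPL−/− MEFs were higher by 0.29 (SE 0.10, adjusted p = 0.0217 by limma). This call was lost without littermate array 2 (adjusted p = 0.0655 by limma), SIMPL−/− array 2 (0.0509) or SIMPL−/− array 3 (0.0803). The Saa1 responses to TNFα were 0.18 in littermate and −0.26 in SIMPL−/− MEFs, and neither passed the test (adjusted p = 0.39 and 0.173 by limma). Their difference, −0.44 (interval −0.73 to −0.15), did not pass either (adjusted p = 0.178 by limma).

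Saa2 passed no test in any comparison of all arrays. Without littermate array 2, it was called higher in untreated SIMPL−/− MEFs (0.31, adjusted p = 0.0412 by limma). Its group means were 3.71 ± 0.24, 3.91 ± 0.19, 3.93 ± 0.16 and 3.89 ± 0.17 (SD, n = 4 each) for untreated littermate, treated littermate, untreated SIMPL−/− and treated SIMPL−/− MEFs, and these groups all overlap. Its response was 0.20 in littermate MEFs (interval −0.05 to 0.45) and −0.04 in SIMPL−/− MEFs (interval −0.29 to 0.21). Saa4, the serum amyloid that is made without inflammation, responded by 0.00 and −0.18 and passed the test in neither genotype (adjusted p = 0.99 and 0.305 by limma). Saa3 was therefore the one measured serum amyloid with a called response.

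**Figure D2:**
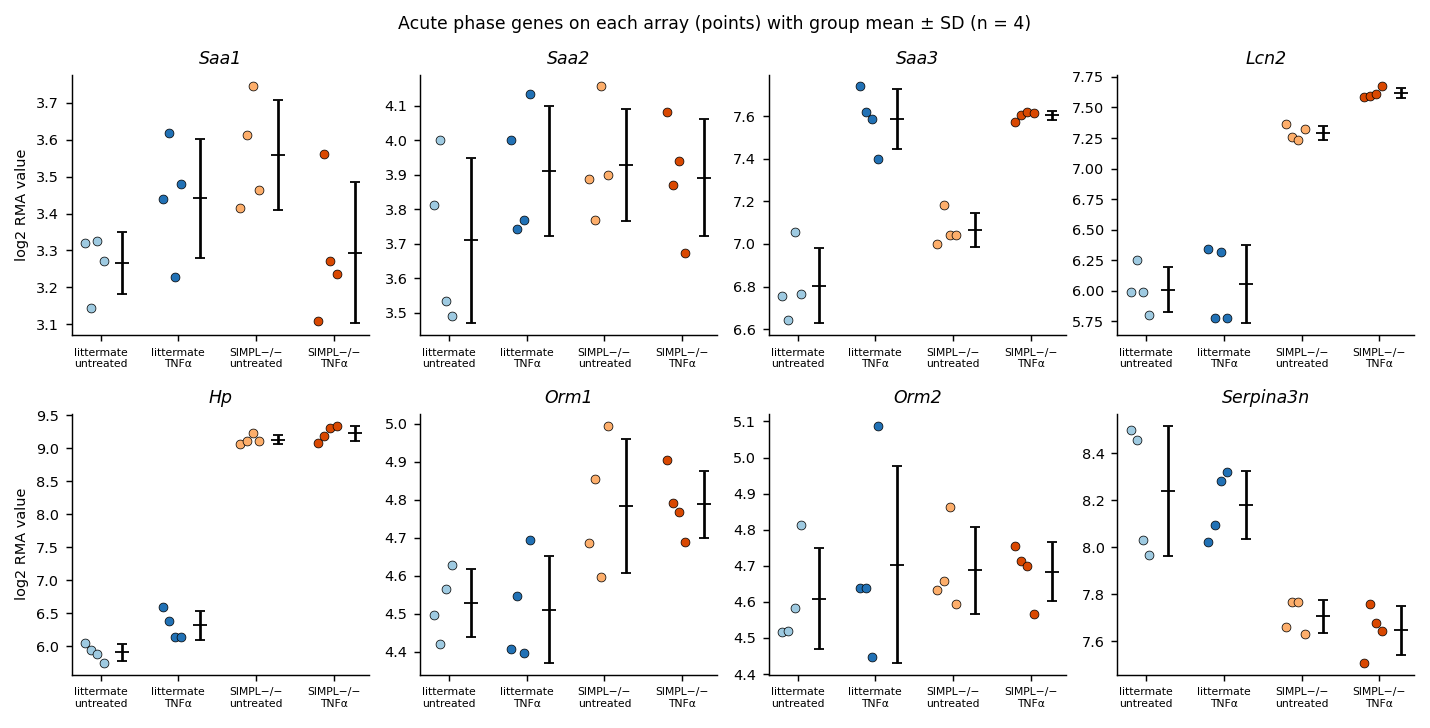
Log2 value of each of the 8 genes on each array (points) with the group mean and SD (bar), for untreated and TNFα treated littermate and SIMPL−/− MEFs, each gene on its own axis. Saa3 is higher after TNFα in both genotypes, Hp and Lcn2 are higher in SIMPL−/− MEFs on every array, and Serpina3n is lower.

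Hp differed more between the genotypes than any other gene of the list. Haptoglobin binds free haemoglobin in plasma. Littermate arrays read 6.05, 5.94, 5.88 and 5.75 untreated and 6.59, 6.38, 6.15 and 6.14 with TNFα. SIMPL−/− arrays read 9.06, 9.11, 9.23 and 9.11 untreated and 9.08, 9.18, 9.31 and 9.33 with TNFα. The genotypes were thus far apart on every array, with a gap much wider than the spread of any group. Untreated SIMPL−/− MEFs were higher by 3.22 on the log2 scale, or 9.33-fold (SE 0.09, adjusted p = 1.26e-14 by limma), and treated ones by 2.91, or 7.51-fold (adjusted p = 2.61e-14 by limma).

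TNFα raised Hp in littermate MEFs by 0.41 (SE 0.09, adjusted p = 0.0101 by limma), and the lowest treated array lay above the highest untreated one. This call was lost with the methods' t-test (adjusted p = 0.186). In SIMPL−/− MEFs, where Hp was already high, the difference was 0.10 (interval −0.09 to 0.29, adjusted p = 0.678 by limma). The responses differed by −0.31 (interval −0.58 to −0.04), which did not pass the test (adjusted p = 0.322 by limma). A smaller Hp response in SIMPL−/− MEFs was therefore not shown.

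Lcn2 showed the next largest difference. Lipocalin 2 binds bacterial siderophores and so withholds iron from bacteria. Its values were 5.99, 6.25, 5.99 and 5.80 on untreated littermate arrays and 6.34, 5.78, 6.32 and 5.78 on treated ones. They were 7.36, 7.25, 7.23 and 7.32 on untreated SIMPL−/− arrays and 7.58, 7.60, 7.61 and 7.67 on treated ones. All SIMPL−/− arrays lay above all littermate arrays, and within SIMPL−/− MEFs all treated arrays lay above the untreated ones. Lcn2 was higher in SIMPL−/− MEFs by 1.28 (SE 0.12, 2.44-fold, adjusted p = 4.62e-08 by limma) without TNFα and by 1.56 (2.95-fold, adjusted p = 2.67e-09 by limma) with it.

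The TNFα response of Lcn2 in SIMPL−/− MEFs depended on how the spread was estimated. It was 0.32 (SE 0.12, interval 0.08 to 0.57) and did not pass with the spread of all 4 groups (adjusted p = 0.162 by limma), of which the treated littermate group is the widest at an SD of 0.32. With the SIMPL−/− arrays alone it passed (adjusted p = 0.00855 by limma), as it did by the methods' t-test (adjusted p = 0.0169). In littermate MEFs it was 0.05 (interval −0.20 to 0.29, adjusted p = 0.902 by limma). The responses differed by 0.28 (interval −0.07 to 0.62, adjusted p = 0.488 by limma), so that a different Lcn2 response in the genotypes was not shown.

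The orosomucoids, plasma carriers of drugs and lipids, were dim, with Orm1 between percentiles 11 and 17 of all genes on an array and Orm2 between 11.9 and 18.6. Orm1 read from 4.42 to 4.63 on untreated and from 4.40 to 4.69 on treated littermate arrays, and from 4.60 to 4.99 and from 4.69 to 4.90 on SIMPL−/− arrays. The genotypes overlapped at their edges, and Orm1 was higher in SIMPL−/− MEFs by 0.26 without TNFα (SE 0.09, adjusted p = 0.0228 by limma) and by 0.28 with it (adjusted p = 0.015 by limma). The untreated call was lost without littermate array 1 (adjusted p = 0.0528 by limma) or 2 (0.0688) or SIMPL−/− array 2 (0.059) or 4 (0.093), and with the methods' t-test (0.0919). The treated call was lost without littermate array 3 or SIMPL−/− array 1 (adjusted p = 0.0535 by limma in each case) and with the methods' t-test (0.0535). The TNFα differences of Orm1 were −0.02 in littermate and 0.00 in SIMPL−/− MEFs, with intervals inside ±0.20. Orm2, whose values ran from 4.45 to 5.09 over all arrays, passed no test, and its genotype differences were 0.08 without and −0.02 with TNFα. Orm3, another orosomucoid gene, passed none either.

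Serpina3n ran opposite to Hp and Lcn2. It encodes an inhibitor of serine proteases, among them granzyme B, and is the mouse relative of human α1-antichymotrypsin. Untreated littermate arrays read 8.50, 8.46, 8.03 and 7.97 and treated ones 8.02, 8.10, 8.28 and 8.32. SIMPL−/− arrays read 7.66, 7.77, 7.77 and 7.63 without TNFα and 7.51, 7.76, 7.68 and 7.64 with it. Every SIMPL−/− array was below every littermate array. The untreated littermate arrays lay in a higher and a lower pair, and their SD of 0.28 was the largest of the 4 groups. Serpina3n was lower in SIMPL−/− MEFs by 1.45-fold with and without TNFα, at log2 differences of −0.53 in each case (SE 0.11, adjusted p = 0.000457 and 0.000522 by limma). TNFα moved it by −0.06 in each genotype (adjusted p = 0.848 and 0.852 by limma), and the difference between these responses was −0.00 (interval −0.31 to 0.31).

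Over the 5 comparisons, the genes stood against the whole array as follows. Of the 8 measured genes, 2 rose with TNFα in littermate MEFs (Saa3 and Hp), where 2.7% of all genes rose, and 1 rose in SIMPL−/− MEFs (Saa3), where 1.73% did. By limma 0 fell in either genotype, where 2.45% and 1.39% of all genes fell, and at an unadjusted p under 0.05 the count was 0 in littermate MEFs (8.32% of all genes) and 1 in SIMPL−/− MEFs (Saa1, against 9.4%). By the methods' t-test 0 fell as well. Between the responses 0 differed by limma, against 0.537% of all genes, while 3 had an unadjusted p under 0.05 (Saa1, Saa3 and Hp), against 12.9% of all genes. The estimated rises of Saa3 and Hp were smaller in SIMPL−/− MEFs. The dim gene Saa1 moved in opposite directions, by 0.18 in littermate and −0.26 in SIMPL−/− MEFs. By the unmoderated linear model, 0 were called as well.

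Without TNFα, 5 of the 8 were higher in SIMPL−/− MEFs (Hp, Lcn2, Saa1, Saa3 and Orm1) and 1 was lower (Serpina3n). That has to be read against 23.3% and 17.6% of all genes. With TNFα, 3 were higher (Hp, Lcn2 and Orm1) and 1 lower (Serpina3n), against 17.8% and 18.4%. Treated arrays lay wholly above untreated ones for Saa3 and Hp in littermate MEFs, against 5.29% of all genes, and for Saa3 and Lcn2 in SIMPL−/− MEFs, against 3.87%. SIMPL−/− arrays lay wholly above littermate ones for Hp, Lcn2 and Saa1 without TNFα and for Hp and Lcn2 with it, against 22.1% and 16.1% of all genes. They lay wholly below for Serpina3n in both cases, against 17.5% and 17.2%. The median difference of the 8 genes was 0.26 without TNFα, against 0.07 over all genes, and −0.00 with it, against 0.03. Beside Hp and Lcn2, the genotype differences of the other genes lay between −0.53 and 0.29.

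**Figure D3:**
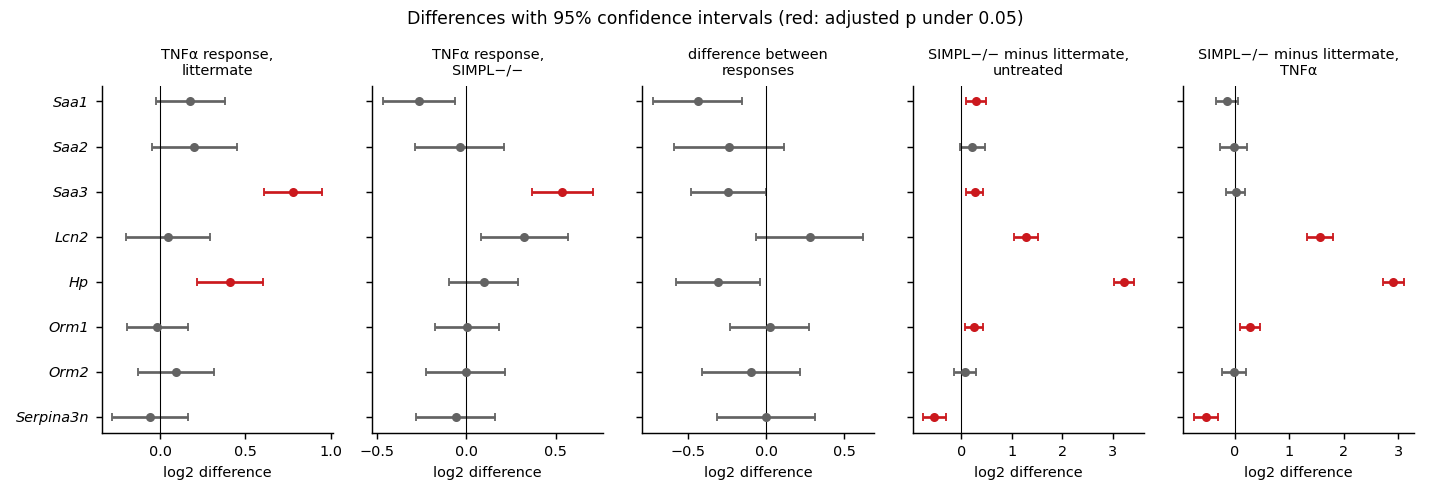
Log2 difference with its 95% interval for each of the 8 genes in each of the 5 comparisons, red where limma called it. Hp at 3.22 and 2.91 and Lcn2 at 1.28 and 1.56 stand apart in the comparisons of genotypes, and in the difference between responses no gene is called.

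Among 26 other acute phase proteins that were measured, 4 rose with TNFα in littermate MEFs by limma and 0 fell, 0 also at an unadjusted p under 0.05. These were Ptx3 (log2 difference 1.01, adjusted p = 1.16e-08 by limma), a pentraxin made at sites of inflammation, the metallothionein genes Mt2 (0.82) and Mt1 (0.33), which bind zinc and copper, and Steap4 (0.69), a metalloreductase. In SIMPL−/− MEFs 3 rose, Mt2 (1.03), Ptx3 (0.57) and Mt1 (0.49), and 0 fell, or 1 at an unadjusted p under 0.05 (Saa4, −0.18). Steap4 differed by 0.05 there, and its response was smaller by −0.64 without passing the test (adjusted p = 0.0621 by limma). The Ptx3 response was smaller by −0.44 and did not pass either (adjusted p = 0.0604 by limma). The list's median response was 0.05 in littermate and 0.03 in SIMPL−/− MEFs, against 0.01 and −0.02 over all genes. The counts stand against 2.7% of all genes that rose in littermate and 1.73% in SIMPL−/− MEFs, and 2.45% and 1.39% that fell.

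Between the untreated genotypes, 9 of these 26 genes were higher and 6 lower in SIMPL−/− MEFs, against 23.3% and 17.6% of all genes. Lrg1, a leucine-rich plasma glycoprotein, was higher by 1.53 and Steap4 by 0.84, and the complement genes C4b and Cfb were higher by 0.53 and 0.42. Mt2 was lower by −1.45, Mt1 by −1.03, the protease inhibitor gene A2m by −0.60 and Serping1, which encodes the C1 inhibitor, by −0.58. After TNFα 5 were higher and 7 lower, against 17.8% and 18.4% of all genes. Neither direction held for the list as a whole, whose medians were 0.17 and 0.06, against 0.07 and 0.03 over all genes.

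Of 9 genes whose proteins fall in the acute phase, 1 rose with TNFα in littermate MEFs, Ttr, the carrier of thyroxine (0.37, adjusted p = 0.0141 by limma), and 0 fell in either genotype, 0 also at an unadjusted p under 0.05. In untreated SIMPL−/− MEFs 2 of the 9 were higher, Ahsg by 0.27 and Apoa4 by 0.22, against 23.3% of all genes. Trf, which encodes transferrin, was the 1 lower gene, by −0.46, against 17.6% of all genes. With TNFα 1 was higher, Rbp4 by 0.27, against 17.8% of all genes. The 2 lower genes were Trf and Ttr, each by −0.65, against 18.4%. Of all genes, 2.7% rose and 2.45% fell with TNFα in littermate MEFs, and 1.73% and 1.39% in SIMPL−/− MEFs.

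Of 28 other serpins, 0 were called by limma with TNFα in littermate MEFs. At an unadjusted p under 0.05, 2 were higher (Serpina1d and Serpinb6b, named after their values were seen) and 0 lower. In SIMPL−/− MEFs 1 of the 28 rose, Serpinb2, the inhibitor of plasminogen activators (0.53, adjusted p = 0.0193 by limma). Of all genes, 2.7% rose with TNFα in littermate and 1.73% in SIMPL−/− MEFs. Serpina3a and Serpina3b, the other measured genes of the Serpina3 cluster, passed no test in any comparison. Between the untreated genotypes 9 serpins were higher in SIMPL−/− MEFs and 2 lower. Serpinb9b was higher by 1.43, Serpinb6b by 0.98 and Serpinb2 by 0.56, and Serpinb8 was lower by −1.06. After TNFα 5 were higher and 2 lower, with Serpinb9b at 1.51, Serpinb2 at 1.15 and Serpinb8 at −0.90. Over all genes, 23.3% were higher and 17.6% lower without TNFα, and 17.8% and 18.4% with it.

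Among the regulators upstream of the acute phase genes were some of the larger TNFα responses. Of 23 measured cytokines, receptors and transcription factors of the response, 9 rose with TNFα in littermate MEFs by limma and 0 fell, 0 also at an unadjusted p under 0.05. Among them were Bcl3, a partner of NF-κB in the nucleus (1.81), the cytokine genes Lif (1.36) and Il6 (0.89), and Cebpd (0.97) and Cebpb (0.64), which encode C/EBP factors. In SIMPL−/− MEFs 6 rose, with Lif at 1.83, Il6 at 1.65, Bcl3 at 1.30 and Cebpb at 0.70. Cebpd differed by 0.10 there and did not pass (adjusted p = 0.588 by limma). By limma the response was smaller in SIMPL−/− MEFs for 3 of the 23 and larger for 0, while at an unadjusted p under 0.05 it was smaller for 9 and larger for 2 (Il6 and Lif). The smaller responses were those of Cebpd (−0.87, adjusted p = 0.000285 by limma), Socs3, the feedback inhibitor of STAT3 signalling (−0.52, adjusted p = 0.0341), and Bcl3 (−0.51, adjusted p = 0.0295). Of all genes, 2.7% rose with TNFα in littermate and 1.73% in SIMPL−/− MEFs. By limma 0.537% of all genes differed between the responses, and 12.9% at an unadjusted p under 0.05.

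Il6 stood higher in SIMPL−/− MEFs, by 1.33 without TNFα (adjusted p = 4.13e-06 by limma) and by 2.09 with it (adjusted p = 8.72e-09 by limma). Il6 was dim in littermate MEFs, with group means of 4.67 untreated and 5.55 treated that came from overlapping arrays, so that its differences rest on a weak signal there. Its response differed by 0.76, which did not pass the test (adjusted p = 0.185 by limma). The genes of its receptor were lower in untreated SIMPL−/− MEFs, Il6ra by −0.48 and Il6st by −0.43. Stat3 differed by −0.05 without TNFα and was lower by −0.21 with it (adjusted p = 0.00395 by limma). In all, 11 of the 23 were higher and 3 lower without TNFα, against 23.3% and 17.6% of all genes, and 5 were higher and 6 lower with it, against 17.8% and 18.4%.

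**Figure D4:**
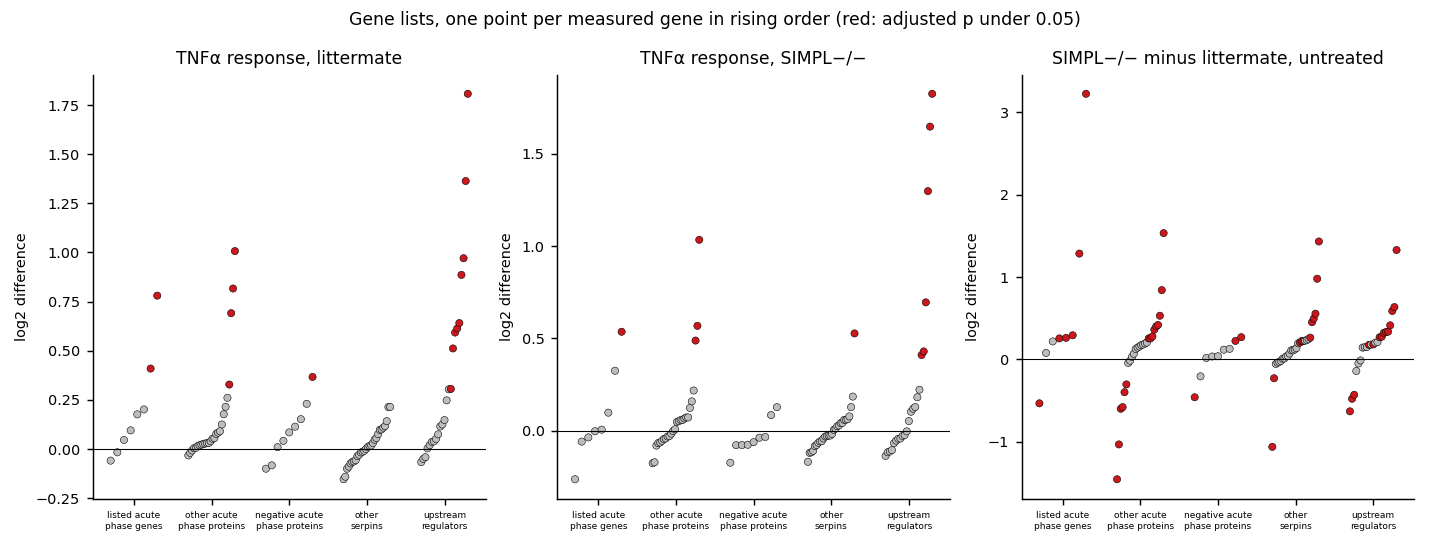
Log2 difference of each measured gene of 5 lists, in rising order within a list (red where limma called it, grey otherwise), for the TNFα response of each genotype and for the untreated genotypes. Of these lists the upstream regulators reach the largest TNFα responses, with Lif at 1.83 and Bcl3 at 1.81, and Hp at 3.22 is the highest point between the untreated genotypes.

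Of 22 measured receptors, partners and protease targets of these proteins, 4 were higher, 10 lower and 8 not called in untreated SIMPL−/− MEFs, against 23.3% of all genes higher and 17.6% lower. The median difference of the list was −0.06. Lrp2, the large endocytic receptor that takes up lipocalin 2 among other ligands, was higher by 0.82 (adjusted p = 5.39e-09 by limma) and by 1.10 with TNFα. Slc22a17, another lipocalin 2 receptor, differed by −0.06 and did not pass. Mmp9, the protease whose protein binds lipocalin 2, was higher by 0.23 and rose with TNFα by 0.29 in littermate and 0.58 in SIMPL−/− MEFs.

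Cd163, the macrophage receptor for haptoglobin bound to haemoglobin, was higher in untreated SIMPL−/− MEFs by 0.26 (adjusted p = 0.00948 by limma), at a dim signal, with group means from 4.31 to 4.58. Itgam and Itgb2, the chains of a leukocyte integrin that also binds haptoglobin, were lower by −1.77 and −1.73. Tlr2, a receptor that serum amyloid A can engage, rose with TNFα by 2.25 in littermate and by 0.79 in SIMPL−/− MEFs, and the difference of −1.45 passed the test (adjusted p = 4.07e-05 by limma). Scarb1, a lipoprotein receptor that also binds serum amyloid A, was higher by 0.16 (adjusted p = 0.0332 by limma). The cathepsin genes Ctss, Ctsb and Ctsl were lower by −2.36, −1.30 and −0.37. Cd163, Itgam, Itgb2 and Ctss are also on the list of myeloid cell markers, most of which were lower.

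Markers of other cell types moved with the genotype too. In a culture, fewer cells of a type and less RNA per cell cannot be told apart. Of 14 adipocyte markers, 12 were higher and 0 lower in untreated SIMPL−/− MEFs, against 23.3% and 17.6% of all genes. Against 0.07 over all genes, the median difference of these markers was 0.995. Their mean log2 value ran from 6.59 to 6.66 on untreated littermate and from 7.83 to 7.92 on untreated SIMPL−/− arrays, and from 6.59 to 6.72 and from 7.77 to 7.79 with TNFα. Car3 was higher by 3.79, Adipoq, which encodes adiponectin, by 3.07, and Fabp4, a fatty acid binding protein, by 2.44. Adipoq read 4.57 to 5.01 on untreated littermate arrays, at percentiles 13.4 to 18.4, so that it was dim there.

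Of 29 myeloid cell markers, 26 were lower and 1 higher in untreated SIMPL−/− MEFs, against 17.6% and 23.3% of all genes. The median difference of these markers was −1.82. Their mean log2 value ran from 8.83 to 9.15 on untreated littermate and from 7.03 to 7.18 on untreated SIMPL−/− arrays, and from 8.92 to 9.31 and from 7.08 to 7.17 with TNFα. Mrc1 was lower by −3.42 and Cd68 by −2.96, both of macrophages. Of 10 epithelial markers 7 were higher and 0 lower, led by Krt18 (2.13), while Epcam did not differ by the test and read 5.29 to 5.87 over all arrays. With TNFα 4 of the 10 were higher and 0 lower, against 17.8% and 18.4% of all genes. These were the keratin genes Krt8, Krt14, Krt18 and Krt19. The median difference of the 10 was 0.35 without TNFα and 0.08 with it, against 0.07 and 0.03 over all genes. The part of adipocyte, myeloid, epithelial or fibroblast cells in the levels of Saa3, Hp, Lcn2 and Serpina3n was not tested. Against the myeloid mean, Saa3 had a Pearson's r of −0.124 over the 16 arrays and 0.805 with group means taken away. Over the arrays, r against the myeloid mean was −0.978 for Hp, −0.947 for Lcn2 and 0.833 for Serpina3n. With group means taken away it was 0.344 for Hp, 0.264 for Lcn2 and −0.612 for Serpina3n. Against the adipocyte mean, r was 0.991 for Hp and 0.956 for Lcn2. It was 0.413 and 0.281 with group means taken away. Against the mean of the fibroblast markers, Serpina3n had an r of 0.948, and 0.784 with group means taken away. Of all pairs of a measured member and a list, 0.805 and 0.784 were the highest r with group means taken away. Saa2 came close, at 0.762 against the other acute phase proteins and 0.723 against the fibroblast markers.

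Hepatocyte markers spanned a range of signals. Alb, which encodes albumin, read 3.69 to 4.49, at percentiles 4.31 to 11.7 of the genes on an array, and passed no test. Apoa1, an apolipoprotein gene, lay higher, at percentiles 27.1 to 37.5, and Apoa2, another, had group means of 7.55 and 7.52 in untreated littermate and SIMPL−/− MEFs, above the median of every array. Of 13 hepatocyte markers 2 were higher and 0 lower in untreated SIMPL−/− MEFs, and of 13 neutrophil markers 1 was higher and 3 lower, against 23.3% and 17.6% of all genes. Among the neutrophil markers, S100a8 and S100a9 were lower, at −0.37 and −0.43. The fibroblast identity of the cultures was visible in Col1a1, the gene of the main collagen chain, at percentiles 99.98 to 99.99, although 9 of 15 fibroblast markers were lower in untreated SIMPL−/− MEFs, led by Lum (−2.87), and 3 were higher. All 16 arrays thus had a high signal of collagen and a low one of albumin.

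The genes whose pattern was most like that of a member were taken from all genes by correlation over the 16 arrays. Such correlations describe arrays that share a genotype and a treatment, and with genotype groups far apart most of their size comes from that split. The genes most like Hp were Fabp4 (Pearson's r = 0.995 over 16 arrays), Car3 (0.995) and Upk1b (0.993). After the group means were taken away, r was 0.43 for Fabp4, 0.25 for Car3 and 0.25 for Upk1b. Hp and Lcn2 had an r of 0.966 over the arrays and 0.33 within groups. Thus arrays of 1 group that were higher in Hp were only loosely higher in these genes.

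**Figure D5:**
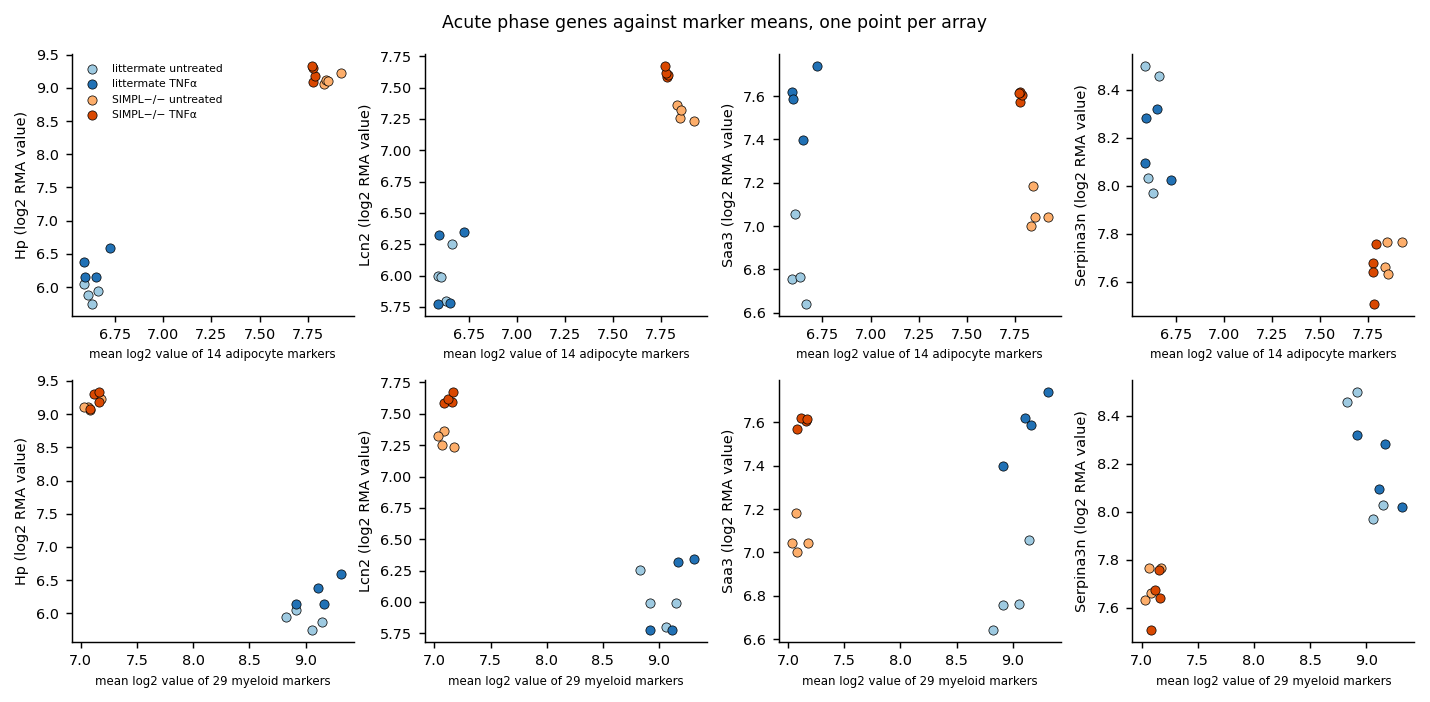
Log2 values of Hp, Lcn2, Saa3 and Serpina3n on each of the 16 arrays against the mean log2 value of the adipocyte markers (top row) or the myeloid cell markers (bottom row) on the same array, coloured by group. The littermate and SIMPL−/− arrays form separate clouds for Hp, for which the adipocyte mean runs from 6.59 to 6.72 and from 7.77 to 7.92.

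The genes most like the other members differed from member to member. Saa3 ran with Ier3 (r = 0.957), Pde4b (0.952) and Bcl3 (0.950), and r within groups was 0.55, 0.46 and 0.37. Lcn2 ran with Niban2 (0.985), Abracl (0.977) and Megf10 (0.975), at 0.70, 0.58 and 0.44 within groups. Serpina3n ran with Thbs4, which encodes a matrix thrombospondin (0.968), Tent2 (0.952) and Adamtsl3 (0.948). Within groups r was 0.92, 0.81 and 0.79. Because all these genes were picked by their r over the same arrays, r within groups is not an independent check. The dim genes Saa1 and Orm1 had lower top values, 0.843 for Ackr1 and 0.908 for Kcng1.

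Irak1bp1, the gene of SIMPL, checks the labels. It read 7.65 to 8.21 on littermate and 5.08 to 5.62 on SIMPL−/− arrays. The arrays had medians from 6.67 to 6.76, any pair of arrays of a group had an r of at least 0.995 across genes, and neither labels nor methods give a batch, so that genotype and any batch running with it cannot be told apart.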

How the data were processed

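The deposited values are log2 expression values per probe set that the authors made by RMA, run in Partek (versions not given in the sources used here), while their methods name Affymetrix Microarray Suite instead. RMA sets all arrays to a common distribution, so that a log2 difference is relative to the other genes, and shrinks differences of dim probe sets. Arrays were grouped by their titles. Of 28853 probe sets, 21789 have exactly 1 gene symbol, 1621 have several and 5443 are not listed with a gene. The brightest probe set stood for each of 19938 genes, and no filter was applied.

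In R 4.3.3 with limma 3.58.1, 4 group means were fitted to all arrays in 1 linear model (12 residual and 6.19 prior degrees of freedom), with 5 contrasts, two-sided tests and Benjamini-Hochberg adjustment over all genes. A gene was called at an adjusted p under 0.05, and intervals are 95% intervals. Precision is limited by having 4 arrays a group. The members, the lists and the rule for named genes were chosen with earlier results of these data known. The rule named the members, the 3 genes most correlated with each called member, the called list genes with the largest differences, and the receptors, partners and regulators of members. Genes of a list that have no probe set with 1 symbol were not analysed here.

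No paired analysis was possible because the embryo behind each array is not stated. Alternatives were quantile normalization or centring of the arrays, a filter on dim genes, averaged probe sets, limma's trend and robust options and array weights, a fit of only the compared arrays, the methods' t-test (for the difference between responses an unmoderated linear model), the study's thresholds and leaving out each array. The limma procedure was also run on simulated data, with independent noise per gene and changes placed in the treated littermate arrays alone. That setting holds no genotype differences and no shared embryos, and its outcome is not given here. Promoters (RefSeq, GRCm38.p6) were searched with Python 3.11.15 and aligned with Biopython 1.88, and figures were drawn with matplotlib 3.10.9. Other acute phase and serpin promoters were not printed.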

Additional observations from a re-analysis of the deposited data

Results flagged for a closer look

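One of the 36 sets of 4 arrays examined (8 genes and Irak1bp1 in 4 groups) held an array far from the others. Irak1bp1 read 7.65 on 1 TNFα treated littermate array and 7.98 to 8.03 on the other 3, a gap of 0.881 of the range of the group and more than Dixon's test allows at the 95% level. Chance gives such an array in about 1 in 20 groups. It is the first TNFα treated littermate array, on which Saa3 and Hp were the highest of that group, at 7.74 and 6.59.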

How the results depend on the processing

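The 13 called differences of the 8 genes kept their direction under all 216 alternatives, and 193 of these left the call in place. The other 23 ended a call, of Saa1, Saa3, Hp, Orm1 or Serpina3n, and were those of the methods' t-test, of the study's thresholds (1.5-fold and an unadjusted p under 0.001) and of single arrays given above. Lcn2 kept its calls between genotypes throughout, except where dim genes were left out, which removed it, Saa1, Saa2, Orm1 and Orm2 from the test.

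With dim genes left out, 2 genes were called higher in SIMPL−/− MEFs without TNFα and 1 with it. With only the compared arrays, 2 were called in the TNFα response of SIMPL−/− MEFs. By the methods' t-test, 1 rose in littermate MEFs, 2 rose in SIMPL−/− MEFs and 3 were higher in untreated SIMPL−/− MEFs. At the study's thresholds these counts were 1, 0 and 2, and 0 were lower in SIMPL−/− MEFs in either comparison of genotypes. Leaving out 1 array gave 2 to 5 genes called higher in untreated SIMPL−/− MEFs.

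Of 495 alternatives for the 27 differences that were not called, 47 changed the sign, in 13 differences, all small. With arrays centred on their medians, the Orm2 response in SIMPL−/− MEFs was 0.0262 and the Serpina3n difference between responses 0.0348. After quantile normalization these were 0.0103 and 0.0113, and the Saa2 difference between treated genotypes was 0.00401. With array weights they were 0.0135, 0.0802 and 0.00571, the Orm1 response in SIMPL−/− MEFs was −0.0105 and the Orm2 difference between treated genotypes 0.0241. Leaving out 1 array, responses in littermate MEFs ran from −0.0505 to 0.139 (Lcn2), −0.0777 to 0.0213 (Orm1), −0.0334 to 0.18 (Orm2) and −0.149 to 0.0275 (Serpina3n). Those in SIMPL−/− MEFs ran from −0.101 to 0.0389 (Saa2), −0.0574 to 0.0751 (Orm1) and −0.0346 to 0.0545 (Orm2). Differences between responses ran from −0.0407 to 0.0919 (Orm1), −0.184 to 0.0295 (Orm2) and −0.0877 to 0.0888 (Serpina3n). Differences between treated genotypes ran from −0.0837 to 0.0539 (Saa2), −0.0456 to 0.0685 (Saa3) and −0.105 to 0.108 (Orm2). The cause of these changes was not tested. Signal near background limits Saa1, Saa2, Orm1 and Orm2.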
